A study of Mus musculus with 16 samples.

Results

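The genes described here are 10 genes known from vascular endothelium, the cell layer that lines blood vessels: the transcription factors Etv2 and Sox18, the receptor tyrosine kinases Kdr, Flt1, Tek and Tie1, and the surface proteins Cdh5, Pecam1, Pcdh12 and Emcn. They were brought together because Pcdh12 was among the genes with the largest fall after 24 h of treatment, and the question was whether other endothelial genes were lower as well. The 24 h values of Pcdh12 are therefore a description and were not tested. The 10 genes had 17 of the 60273 probes on the array, and 9 of them were among the 29299 genes that could be tested. In the scanner files only 5 of the 17 probes, 2 for Kdr and 3 for Flt1, carry the gene's symbol. The other 12 are identified there by a transcript and were named through its RefSeq accession.

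RNA came from differentiating mouse embryonic stem cells (mESCs) of the line CGR8-Myh6-GFP, which carries a green fluorescent reporter of the heart gene Myh6 in all groups. From day 4 of differentiation the cultures received the vehicle DMSO, the hawthorn extract WS1442 at 0.25 mg/ml, or the MeOH eluate, a procyanidin-rich fraction of that extract, at 0.1 mg/ml, for 6 h or 24 h. Each DMSO group had 2 samples and each treated group 3, which makes 16 samples in 6 groups on 1-colour arrays. The labels call them replicates without saying that they came from separate cultures, so the p-values measure the spread between these samples, which may be partly technical. These are mixed cultures of a single cell line and not purified endothelial cells, and in such bulk RNA fewer cells of a type and less RNA per cell cannot be told apart. Each slide carried the 8 arrays of one time, and levels at 6 h and 24 h cannot be separated from the slide and were not compared. Between 54.3% and 62.3% of the probes were well above background on an array, and RNA integrity numbers lay between 8.6 and 10, the lowest in WS1442 24 h replicate 2. All levels below are log2 signals after quantile normalization over the 16 arrays, and differences are log2 (fold change) from the fit of all groups with limma, with p-values adjusted over all genes by the Benjamini-Hochberg method and called below 0.05.

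Endothelial cells arise from mesoderm. Etv2, a transcription factor of the ETS family, acts early and briefly in mesodermal cells and switches on the common programme of endothelial and blood cells, among its targets Kdr, Tek, Tie1, Cdh5 and Tal1. Kdr, the main receptor for vascular endothelial growth factor (VEGF), is already present on mesodermal progenitors that can still become heart, vessel or blood. Cdh5 (VE-cadherin), Pecam1, the angiopoietin receptor Tek and its relative Tie1 mark the assembled endothelium, Sox18 acts in arterial and lymphatic development, and Emcn is a sialomucin of veins and capillaries. Pcdh12 is a protocadherin, an adhesion molecule found at endothelial junctions and in some trophoblast cells. Not every marker was measurable in these cultures. Kdr, Flt1, Tek, Tie1, Pecam1, Etv2 and Sox18 were well above background on all 16 arrays, Cdh5 on 5, Pcdh12 on 4 and Emcn on none, and Pecam1 is also made by undifferentiated mESCs.

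ETS factors bind DNA around the core GGAA, which reads TTCC on the opposite strand. The RefSeq promoter table (GRCm38) held windows for 6 of the 10 genes. Of these, Etv2 is printed because it moved most in tests that were open to it, Tie1 because it differed between the treatments at 24 h, and Kdr as a receptor that passed no test. Each line is the 250 bases before the annotated start, 5′ to 3′ on the gene's strand, with every GGAA or TTCC in capitals.
Etv2, chr7:30635853-30636102, minus strand: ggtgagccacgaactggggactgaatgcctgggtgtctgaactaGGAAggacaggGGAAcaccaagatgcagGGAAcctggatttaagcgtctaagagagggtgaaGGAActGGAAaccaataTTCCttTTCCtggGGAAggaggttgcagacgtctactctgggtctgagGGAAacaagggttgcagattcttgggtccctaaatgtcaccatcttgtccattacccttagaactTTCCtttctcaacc
Tie1, chr4:118489850-118490099, minus strand: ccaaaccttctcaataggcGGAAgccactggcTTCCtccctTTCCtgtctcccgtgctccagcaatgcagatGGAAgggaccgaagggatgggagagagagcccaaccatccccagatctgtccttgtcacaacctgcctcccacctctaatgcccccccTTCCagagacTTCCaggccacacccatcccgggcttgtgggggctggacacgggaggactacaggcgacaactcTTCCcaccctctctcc
Kdr, chr5:75978456-75978705, minus strand: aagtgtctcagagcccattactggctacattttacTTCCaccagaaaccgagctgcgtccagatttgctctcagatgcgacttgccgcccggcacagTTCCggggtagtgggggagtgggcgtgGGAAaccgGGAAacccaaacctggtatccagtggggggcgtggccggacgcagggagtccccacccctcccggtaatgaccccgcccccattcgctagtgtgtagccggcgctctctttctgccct
The Etv2 window held 10 such cores, that of Tie1 7 and that of Kdr 4. Over all 32851 windows of this length in the table the median was 3, 93.4% held at least 1, 33.4% at least 4, 3.82% at least 7 and 0.192% at least 10. Of the windows not printed, those of Flt1 and Emcn held 4 each and that of Tek 2. The presence of this core is a description of the letters and not of binding.

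**Figure D1:**
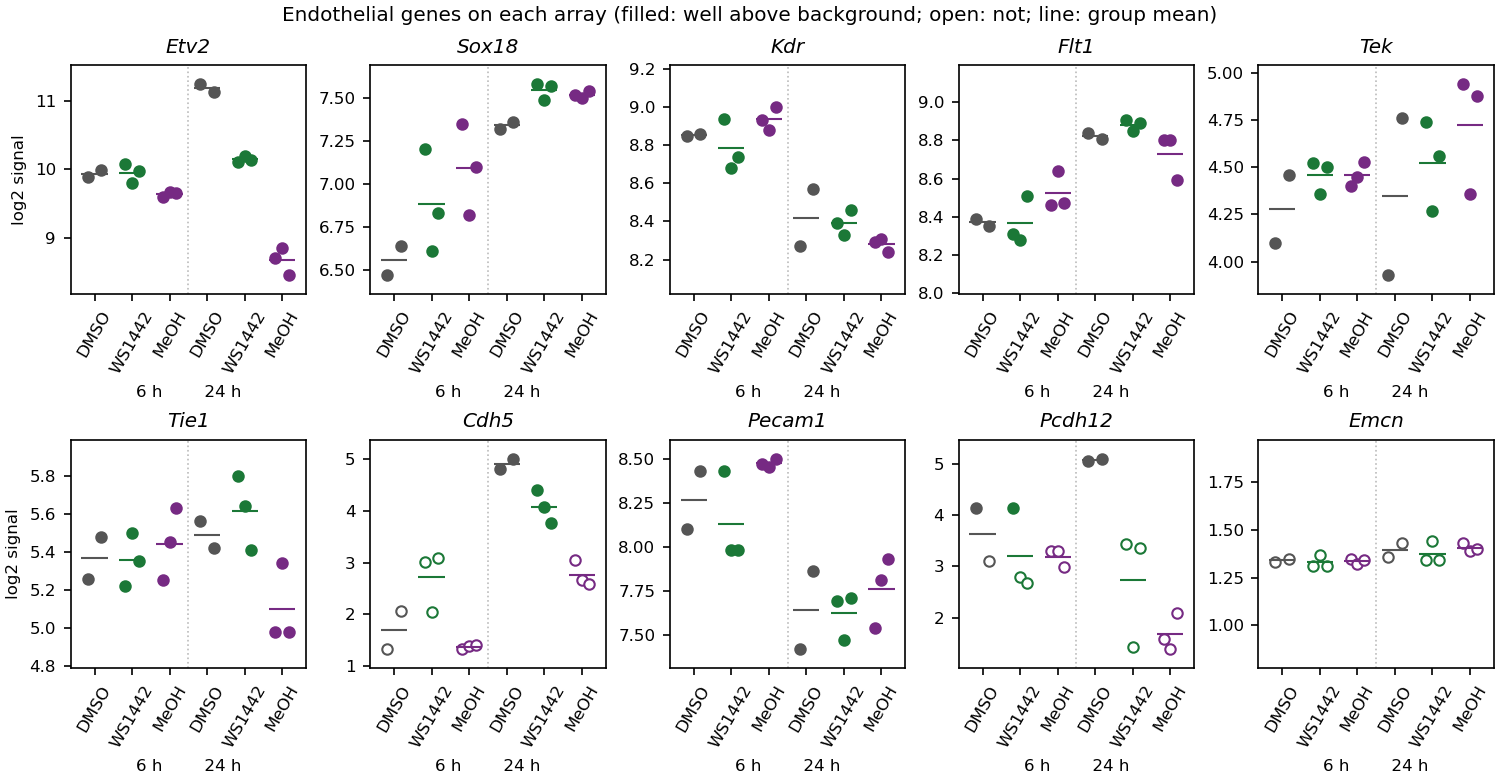
Log2 signal of the brightest probe of each of the 10 genes on each of the 16 arrays, grouped by treatment (MeOH stands for MeOH eluate) and time, with filled points well above background, open points not, and lines at the group mean. Scales differ between panels. With 24 h of treatment Etv2 stepped down from DMSO (11.19) through WS1442 (10.15) to MeOH eluate (8.67), while Kdr stayed between 8.24 and 8.57 on every array of that time point.

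Pcdh12 itself was near the limit of detection. After 24 h its signal was 5.06 and 5.10 with DMSO, 3.43, 1.42 and 3.36 with WS1442, and 1.58, 1.39 and 2.09 with MeOH eluate. Only the DMSO arrays were well above background, so the treated groups give a bound. For WS1442 the signal of Pcdh12 was lower by at least 2.67-fold. For MeOH eluate the bound was at least 2.34-fold. All bounds here set the mean of the measured group against the lowest signal well above background on each dim array, or the gene's own signal where that was higher. The fitted differences, which this choice of gene leaves untested, were -2.34 and -3.39. They were -0.45 and -0.57 when the background was modelled instead (normexp with an offset of 50). That offset is added to every signal and by itself makes the log2 differences of dim genes such as Pcdh12, Cdh5 and Tie1 smaller. The sizes under normexp are therefore no check on the sizes of these falls. The WS1442 value of 1.42 came from replicate 2, the array with the lowest RNA integrity number (8.6). Without that array the difference with WS1442 was -1.68. After 6 h, values that had no part in the choice of the gene, Pcdh12 was well above background on 1 of 2 DMSO arrays, 1 of 3 WS1442 arrays and none of the MeOH eluate arrays. The groups overlapped, and neither treatment passed the test (limma, adjusted p = 0.767 for WS1442 and 0.675 for the MeOH eluate).

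Etv2 was the member with the clearest change. With DMSO at 24 h its signal was 11.24 and 11.13, with WS1442 10.10, 10.19 and 10.14, and with MeOH eluate 8.70, 8.85 and 8.46. The 3 groups did not overlap, and the array with the lowest RNA integrity number (WS1442 24 h replicate 2) had the highest Etv2 of its group. Etv2 fell by 1.04 ± 0.10 (SE) with WS1442, a 2.06-fold decrease (adjusted p = 1.21e-05, limma), and fell by 2.52 ± 0.10 with MeOH eluate, a 5.72-fold decrease (adjusted p = 4.40e-09, limma). Over all genes at 24 h, 0.341% were called lower by more than 2-fold with WS1442 and 0.785% with MeOH eluate. With any single array of the groups compared left out, the difference stayed between -1.09 and -0.99 with WS1442 and between -2.60 and -2.41 with MeOH eluate and was called each time. The methods' t-test means Student's t-test, which the paper's methods name for pairwise comparisons in general and not for the arrays. Here it was adjusted over all genes. Under it the call with WS1442 was lost (adjusted p = 0.0508 by that test, limma 1.21e-05). That test called few genes at 24 h, 104 with WS1442 and 322 with MeOH eluate, where limma called 7246 and 5343.

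At 6 h the picture for Etv2 was smaller and less firm. The call with MeOH eluate given below was kept in 3 of 9 processing alternatives. Its signal was 9.88 and 9.99 with DMSO, 10.07, 9.80 and 9.97 with WS1442, and 9.59, 9.67 and 9.65 with MeOH eluate. WS1442 overlapped DMSO, with a difference of 0.01 and a 95% interval from -0.19 to 0.22. The 3 MeOH eluate arrays lay below both DMSO arrays and below all WS1442 arrays. Etv2 fell by 0.30 ± 0.10 (SE) with MeOH eluate (adjusted p = 0.0487, limma), a call that was lost when any of the 5 arrays compared was left out (adjusted p between 0.0681 and 0.245). The difference of the effects between the time points was tested directly: the effect at 24 h differed from that at 6 h by -1.06 with WS1442 (adjusted p = 7.93e-04, limma) and by -2.22 with MeOH eluate (adjusted p = 5.21e-07, limma), where 6.96% and 3.84% of all genes were called lower in these contrasts.

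Cdh5, the adhesion molecule that holds endothelial junctions together, was the other member that fell at 24 h. With DMSO its signal was 4.81 and 5.01, with WS1442 4.40, 4.07 and 3.77, and with MeOH eluate 3.05, 2.66 and 2.59, the last 3 not well above background. The groups again did not overlap and kept the order seen for Etv2. Its probe was kept only through the DMSO and WS1442 groups at 24 h, so the filter itself favours a lower value with MeOH eluate. With MeOH eluate Cdh5 was at least 2.08-fold lower (adjusted p = 0.00133, limma); the fitted difference of -2.14 was called without each array in turn, was -0.44 with the normexp background, and did not pass the methods' t-test (adjusted p = 0.0621). With WS1442 the difference was -0.83 with a 95% interval from -1.67 to 0.02 (adjusted p = 0.147, limma), and it passed only with the normexp background (-0.23, adjusted p = 0.00438, limma). At 6 h none of the 8 arrays was well above background, so that no fold change can be given there.

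None of the 4 receptors, each read by its brightest probe, was called against DMSO. Kdr had a signal of 8.27 and 8.57 with DMSO at 24 h, 8.39, 8.33 and 8.46 with WS1442, and 8.29, 8.31 and 8.24 with MeOH eluate. All treated arrays of WS1442 lay between the DMSO arrays, and the MeOH eluate arrays lay at or near the lower of them. The 95% interval of the difference ran from -0.23 to 0.17 with WS1442 and from -0.34 to 0.06 with MeOH eluate, so that at this spread a fall of the size of that of Etv2 lay outside both. At 6 h the intervals were -0.27 to 0.13 and -0.12 to 0.28. Its 2 further probes were well above background nowhere.

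Tek and Tie1, the receptors of the angiopoietin system, were dim but measurable. Tek was 3.93 and 4.76 with DMSO at 24 h, a spread that was wider than in either treated group (4.27 to 4.74 with WS1442, 4.36 to 4.94 with MeOH eluate), and all groups overlapped. Its differences from DMSO were between 0.17 and 0.38 in the 4 comparisons, and none was called. Tie1 was 5.56 and 5.42 with DMSO at 24 h, 5.80, 5.64 and 5.41 with WS1442, and 4.98, 5.34 and 4.98 with MeOH eluate. Here the MeOH eluate arrays lay below all others of that time point. Against DMSO the difference of -0.39 did not pass (95% interval -0.77 to -0.02, adjusted p = 0.151, limma). Against WS1442 Tie1 was lower by -0.52 with MeOH eluate (adjusted p = 0.0400, limma), and this call was lost without WS1442 24 h replicate 1 or 2 or without MeOH eluate 24 h replicate 1 or 3 (adjusted p between 0.0998 and 0.141). It was also lost with the normexp background (-0.15), no filter on dim probes, the methods' t-test, a replicate block and the 24 h arrays alone, 5 of 9 alternatives (adjusted p between 0.0545 and 0.164).

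Flt1, the second VEGF receptor, which also exists as a secreted form that captures the ligand, was read by 5 probes that did not behave alike. The first 30 bases of the 4 probes above background are given because the answer depends on which is used, and they are numbered from the brightest down as probes 1 to 4.
Flt1 probe 1: taaagaaaagctatcgggattctctggttc
Flt1 probe 2: ctcagaacaaaacctgaactgaactgagca
Flt1 probe 3: ggaacatatacacaggggaagacatccttc
Flt1 probe 4: ggaggaatgattgtaccacacaaagtcatg
Probes 2 and 4 belong to 1 Ensembl transcript and are placed by the files at chr5:148448888-148448947 and chr5:148450688-148450747 (mm9). Probe 3 is listed for several RefSeq transcripts, among them that of probe 1. Probes 1 and 3 have no position in the files, and probe 5 was well above background nowhere.

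The brightest probe, which stands for Flt1 in the counts, was 8.84 and 8.81 with DMSO at 24 h, 8.91, 8.85 and 8.89 with WS1442, and 8.80, 8.80 and 8.59 with MeOH eluate. Its differences from DMSO were 0.06 and -0.09, neither called. Probe 3 was 8.21 and 8.21 with DMSO, 7.96, 7.91 and 7.79 with WS1442, and 7.65, 7.84 and 7.53 with MeOH eluate, with every treated array below both DMSO arrays. Tested as probes of their own, adjusted over all 36718 kept probes, probes 2, 3 and 4 fell with MeOH eluate at 24 h by 0.37, 0.53 and 0.57 (adjusted p = 0.0251, 0.00619 and 0.00347, limma). They also fell with MeOH eluate at 6 h, by 0.49, 0.49 and 0.39 (adjusted p = 0.00555, 0.0126 and 0.0364, limma). With WS1442 probe 3 passed at 6 h, where it fell by 0.51 (adjusted p = 0.0268, limma). Of all kept probes, 8.20% were called lower with MeOH eluate at 24 h, 8.39% with MeOH eluate at 6 h and 1.16% with WS1442 at 6 h. These were changes of less than 1.5-fold in size.

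**Figure D2:**
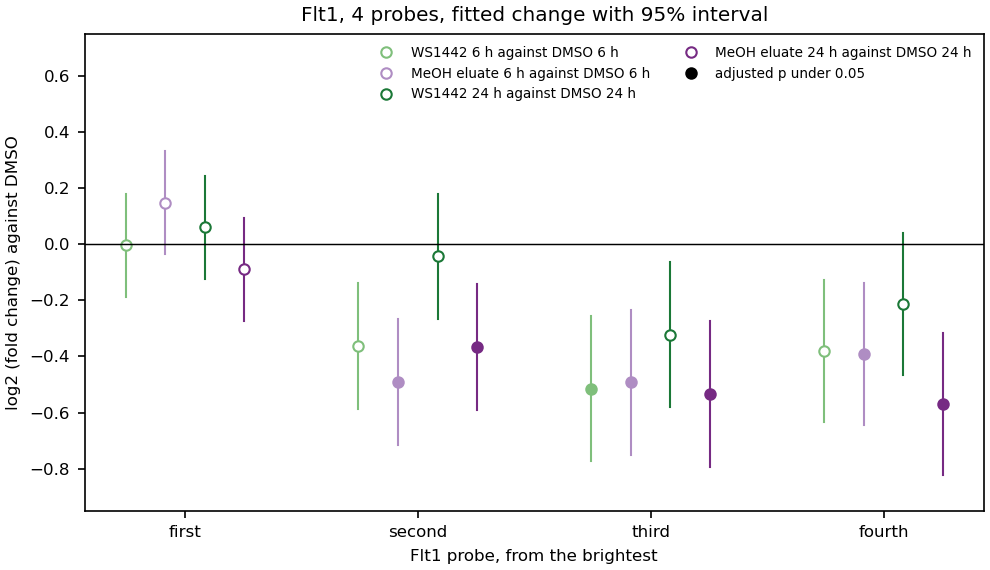
Fitted log2 (fold change) against DMSO of the 4 measurable Flt1 probes, ordered from the brightest, with 95% intervals; filled points have an adjusted p under 0.05. The brightest probe lay between -0.09 and 0.15 in the 4 comparisons, and the other three lay below 0 in each.

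Sox18 was the only member called higher against DMSO, with MeOH eluate at 6 h, and 5 of 9 processing alternatives kept that call. At 6 h its signal was 6.47 and 6.64 with DMSO, 7.20, 6.61 and 6.83 with WS1442, and 7.35, 6.82 and 7.10 with MeOH eluate. The MeOH eluate arrays lay above both DMSO arrays, while those of WS1442 overlapped DMSO. The rise with MeOH eluate was 0.53 ± 0.16 (SE), or 1.45-fold (adjusted p = 0.0296, limma), and it did not pass in a fit of the 6 h arrays alone (adjusted p = 0.111) or without DMSO 6 h replicate 1 or 2 or MeOH eluate 6 h replicate 1 or 3 (adjusted p between 0.0633 and 0.231). At 24 h the groups lay close together, 7.32 and 7.36 with DMSO, 7.58, 7.49 and 7.57 with WS1442 and 7.52, 7.50 and 7.54 with MeOH eluate, and the differences of 0.21 and 0.19 were not called.

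Pecam1, an adhesion molecule of endothelium and platelets, passed no test. Its brighter probe was 7.42 and 7.86 with DMSO at 24 h, 7.69, 7.47 and 7.71 with WS1442, and 7.54, 7.81 and 7.93 with MeOH eluate, so the DMSO arrays spanned nearly the whole range. The 95% intervals were -0.37 to 0.33 with WS1442 and -0.23 to 0.47 with MeOH eluate. The second probe gave -0.17 and -0.30 and was not called either. Emcn stayed between 1.31 and 1.44 on every array, below the lowest signal that was well above background.

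**Figure D3:**
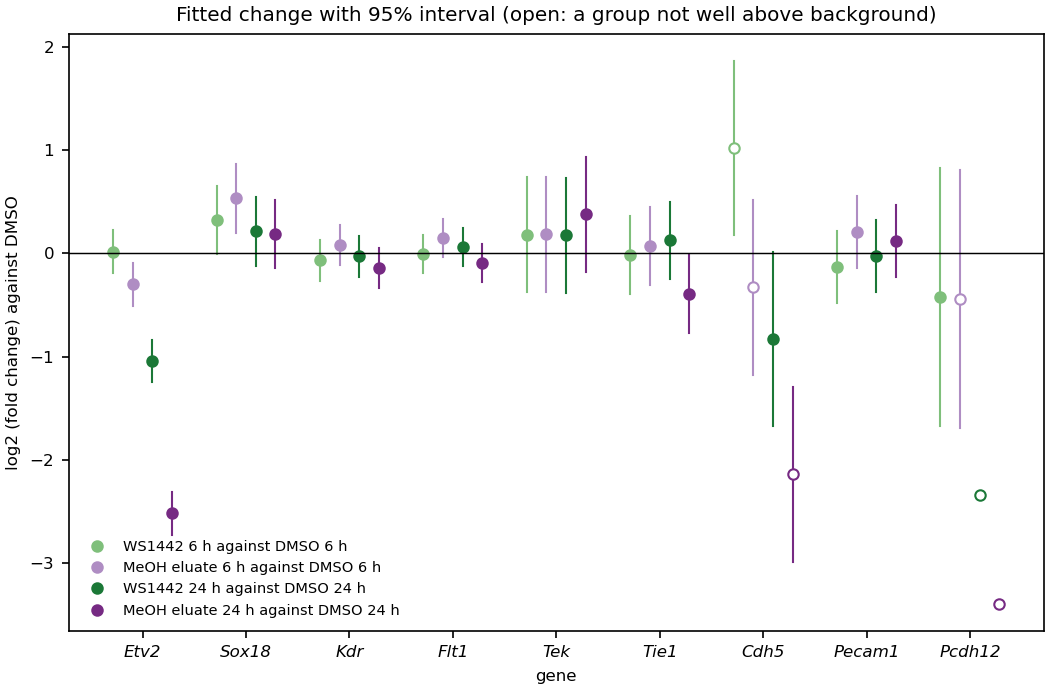
Fitted log2 (fold change) against DMSO of the 9 tested genes, with 95% intervals, for both treatments at 6 h and 24 h; open points mark comparisons with a group not well above background, where the value is not a measured fold change. Pcdh12 at 24 h has no interval because the gene was chosen on those values. Etv2 and Cdh5 reached -2.52 and -2.14 with MeOH eluate at 24 h, while Kdr, Tek, Sox18 and Pecam1 stayed between -0.14 and 0.38 at 24 h.

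The members were also counted together, leaving out the 24 h values of Pcdh12. With WS1442 at 24 h, 1 of 8 members was called lower (Etv2) and none higher. Of all genes, 11.9% were called lower and 12.9% higher, so the count of lower members lay near that share. The median difference was 0.02 against 0.05 over all genes. With MeOH eluate at 24 h, 2 of 8 were called lower (Etv2 and Cdh5) and none higher. Of all genes, 8.60% were called lower and 9.64% higher there, and the median was -0.12 against 0.01. With the mean of a gene's kept probes in place of the brightest, Flt1 was called lower there as well (-0.39, adjusted p = 0.0130, limma), which made 3 of 8. At 6 h, 0 of 9 members were called with WS1442 by limma, against 5.59% of all genes. There 1 (Cdh5, not well above background) had an unadjusted p under 0.05 by limma, against 20.0% of all genes. The methods' t-test called 0 members there, but only 1 of 29300 genes, so its count cannot tell members from other genes. With MeOH eluate at 6 h, 2 of 9 were called, Etv2 lower and Sox18 higher, where 8.38% of all genes were called lower and 8.66% higher.

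The treatments were also compared with each other, at doses that differ (0.1 mg/ml of MeOH eluate and 0.25 mg/ml of WS1442), over 8 or 9 members per time point. At 24 h 3 members were lower with MeOH eluate than with WS1442, Etv2 by -1.47 ± 0.09 (SE, adjusted p = 4.16e-07, limma), Cdh5 by at least 1.17-fold (adjusted p = 0.0223, limma) and Tie1 as given above, where 7.18% of all genes were called lower. The Cdh5 call was lost without WS1442 24 h replicate 1 or 2 or MeOH eluate 24 h replicate 2 or 3 (adjusted p between 0.0614 and 0.0814). At 6 h Etv2 was lower with MeOH eluate by -0.31 ± 0.09 (SE, adjusted p = 0.0325, limma), against 7.34% of all genes, and this call held only without WS1442 6 h replicate 2, among the 6 arrays that were left out in turn. Cdh5 was called there as well, between 2 groups that were both not well above background, and no fold change is given. That call was lost without WS1442 6 h replicate 1 or 3 or MeOH eluate 6 h replicate 1 or 3 (adjusted p between 0.0607 and 0.115) and with the normexp background, the methods' t-test or the 6 h arrays alone (adjusted p between 0.0712 and 0.166). The other members did not pass.

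Beyond these genes, 30 further endothelial genes were listed, and 27 of them could be tested. With MeOH eluate at 24 h, 8 were called lower and 1 higher, with a median of -0.15, and with WS1442 7 lower and 3 higher, with a median of -0.14. Over all genes at 24 h, 8.60% were called lower and 9.64% higher with MeOH eluate, and 11.9% lower and 12.9% higher with WS1442. Sox17, a transcription factor of arterial endothelium and endoderm, was 7.44 to 7.48 with DMSO, 6.15 to 6.30 with WS1442 and 5.64 to 6.11 with MeOH eluate. Its differences were -1.24 ± 0.14 (SE, adjusted p = 4.55e-05, limma) and -1.65 ± 0.14 (adjusted p = 2.12e-06, limma), and -0.65 with MeOH eluate at 6 h (adjusted p = 0.00652, limma). Plvap, which forms the diaphragms of endothelial fenestrae and caveolae, was not called at 6 h and fell at 24 h, with differences of -1.05 under WS1442 and -1.53 under MeOH eluate (adjusted p = 0.00111 and 5.03e-05, limma). Vwf, the clotting factor stored in endothelial cells, was at least 2.52-fold lower with MeOH eluate at 24 h (adjusted p = 0.0193, limma). Its DMSO arrays were as far apart as 4.27 and 6.11. Its probe was kept only through the DMSO groups, where it was high, so the filter itself favours a lower value after treatment. This call, included in the 8 lower, therefore adds no support. Gja5, the gap junction protein of arteries and of the atrial and conducting heart, went the other way and was at least 2.45-fold higher with MeOH eluate (adjusted p = 0.00509, limma) and at least 1.67-fold with WS1442 (adjusted p = 0.0454, limma). At 6 h the list had 3 lower and 2 higher with MeOH eluate, against 8.38% and 8.66% of all genes, and 1 higher with WS1442, where 1.45% of all genes were called lower and 4.14% higher.

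The transcription factors that act beside Etv2 at the branch to blood were called lower in part. Tal1, a partner and target of Etv2, was 7.92 to 8.30 with DMSO at 24 h, 6.76 to 7.06 with WS1442 and 5.90 to 6.48 with MeOH eluate, without overlap and in the same order as Etv2. Its differences were -1.19 ± 0.16 (SE, adjusted p = 1.57e-04, limma) and -1.89 ± 0.16 (adjusted p = 2.08e-06, limma). Lmo2, which binds Tal1, fell with MeOH eluate, by 1.46 at 24 h and by 0.94 at 6 h (adjusted p = 6.35e-06 and 5.09e-04, limma), and its difference with WS1442 at 24 h was -0.32 (adjusted p = 0.123, limma). Of the 8 factors in this list, 3 were called lower with MeOH eluate and 1 lower and 1 higher with WS1442 at 24 h, against 8.60% of all genes lower with MeOH eluate and 11.9% lower and 12.9% higher with WS1442. At 6 h 1 was lower with MeOH eluate, against 8.38% of all genes. With WS1442 at 6 h none was called by limma, against 5.59% of all genes.

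Among the ligands and co-receptors of the vessel, 10 of 12 could be tested. Angpt2, the Tek ligand that loosens vessels, fell at 6 h, with differences of -0.88 under WS1442 and -1.09 under MeOH eluate (adjusted p = 0.00557 and 2.55e-04, limma). Apln, the apelin precursor, fell at 6 h with MeOH eluate by 1.20 (adjusted p = 2.34e-07, limma) and rose slightly with WS1442 at 24 h, by 0.31 (adjusted p = 0.0104, limma). At 24 h 3 of the 10 were lower with MeOH eluate, and 1 was lower and 2 higher with WS1442, against 8.60% of all genes lower with MeOH eluate and 11.9% lower and 12.9% higher with WS1442. At 6 h the calls were 3 lower and 3 higher with MeOH eluate and 1 lower and 2 higher with WS1442. Of all genes at 6 h, 8.38% were called lower and 8.66% higher with MeOH eluate, and 1.45% and 4.14% with WS1442.

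**Figure D4:**
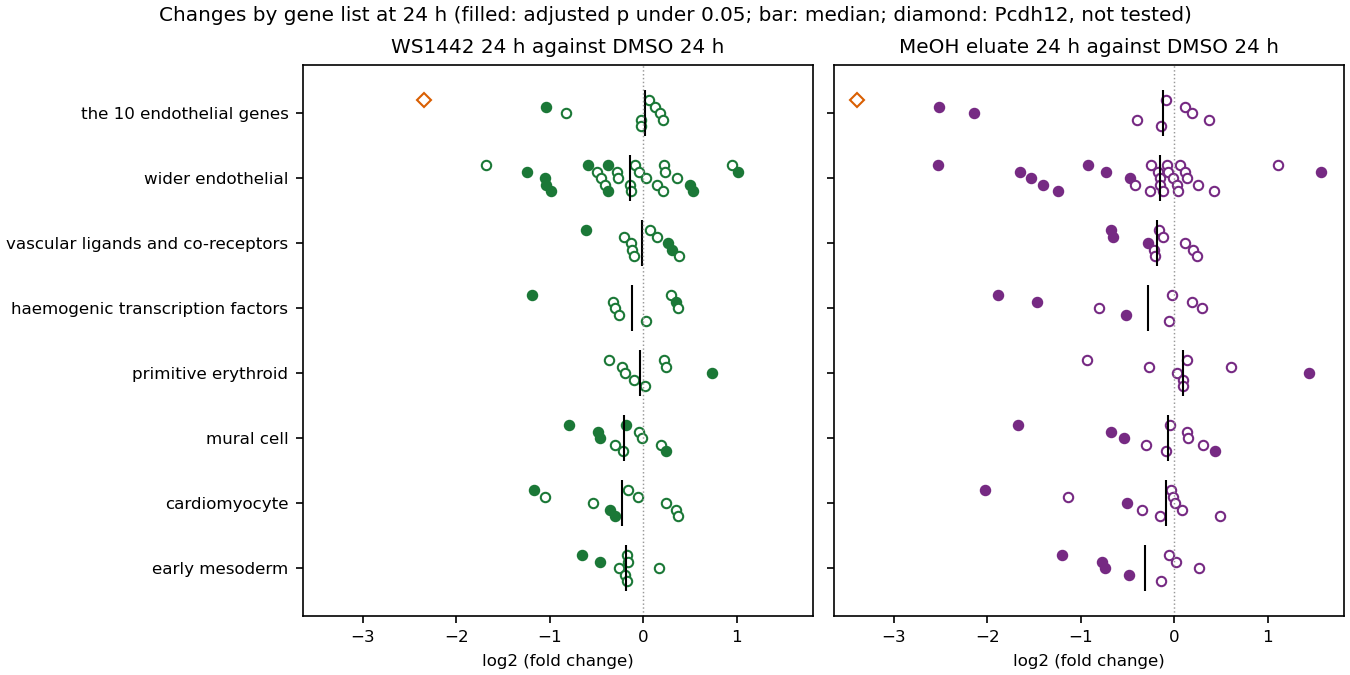
Log2 (fold change) against DMSO at 24 h of every tested gene in 8 lists, WS1442 on the left and MeOH eluate on the right; filled points have an adjusted p under 0.05, bars are medians, and the diamond is Pcdh12, which was not tested and is left out of the median. The medians lie between -0.31 (early mesoderm, MeOH eluate) and 0.09 (primitive erythroid, MeOH eluate), and most are negative. The medians over all genes were 0.05 with WS1442 and 0.01 with MeOH eluate.

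Genes of other cell types were called as well, and their values stand beside the endothelial ones. Mixl1 and T, factors of the early mesoderm from which endothelium comes, fell with MeOH eluate at 6 h by 2.39 and 1.29 (adjusted p = 2.53e-11 and 2.06e-06, limma). Of the 8 genes of that list, 4 were lower with MeOH eluate at either time and 2 with WS1442 at either time, and 1 was higher with MeOH eluate at 6 h (Mesp2, named after its values were seen, by 0.46). Over all genes, 8.38% were called lower and 8.66% higher with MeOH eluate at 6 h, and 8.60% lower at 24 h. With WS1442 the shares called lower were 1.45% at 6 h and 11.9% at 24 h. The mean log2 signal of the early mesoderm list at 24 h was 8.40 to 8.41 with DMSO, 8.13 to 8.23 with WS1442 and 7.96 to 8.06 with MeOH eluate. Of 10 cardiomyocyte genes, 2 were lower with MeOH eluate and 3 with WS1442 at 24 h, where 8.60% and 11.9% of all genes were, led by Myl7, an atrial myosin light chain, which fell by 2.02 and 1.17 at 24 h after rises of 1.05 and 0.61 at 6 h (adjusted p between 8.29e-07 and 0.0385, limma). At 6 h 1 other gene of this list was called, Myl2 (named after its values were seen), lower with MeOH eluate (-0.31). The mean of the list's signal at 24 h was 7.23 to 7.33 with DMSO, 6.96 to 7.11 with WS1442 and 6.87 to 6.97 with MeOH eluate. Whether these shifts have a part in the fall of Etv2 and Cdh5 was not tested.

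Of 10 mural cell genes, 3 were lower and 1 higher with MeOH eluate and 4 lower and 1 higher with WS1442 at 24 h, and at 6 h 2 were lower and 2 higher with MeOH eluate and none was called with WS1442 by limma. Rgs5, a pericyte marker, fell by 1.67 and 0.79 (adjusted p = 2.21e-05 and 0.00682, limma), and Pdgfrb fell by 1.06 with MeOH eluate at 6 h (adjusted p = 1.43e-04, limma). Of 8 primitive erythroid genes none was called lower in any comparison with DMSO, and Hbb-bh1, an embryonic globin, rose by 1.45 with MeOH eluate at 24 h (adjusted p = 0.0149, limma), from a DMSO group with 1 of 2 arrays well above background. Of 8 pluripotency genes, 3 were lower with MeOH eluate at 6 h and 1 at 24 h, and 1 and 2 with WS1442, Tdgf1 among them each time. Of 4 measurable trophoblast genes, 1 was lower with MeOH eluate at each time point, Cdx2. At 6 h Cdx2 was 4.76 to 5.06 with DMSO and 2.86 to 3.76 with MeOH eluate, where 1 of 3 arrays was well above background, so that no fold is given (adjusted p = 0.00242, limma). At 24 h it was at least 2.00-fold lower (adjusted p = 0.00522, limma). With WS1442 at 24 h 1 trophoblast gene was lower and 1 higher, and at 6 h none passed. For the counts of all these lists, 8.60% of all genes were called lower and 9.64% higher with MeOH eluate at 24 h. With WS1442 at 24 h the shares were 11.9% and 12.9%. At 6 h they were 8.38% and 8.66% with MeOH eluate and 1.45% and 4.14% with WS1442.

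The relatives of Pcdh12 went both ways. Of 9 testable protocadherins outside the gene clusters, 1 was lower and 1 higher at 24 h with either treatment, Pcdh7 (named here after its values were seen) and Pcdh19. These counts lay near the shares of all genes at 24 h. Those were 8.60% lower and 9.64% higher with MeOH eluate, and 11.9% lower and 12.9% higher with WS1442. Pcdh19 rose in all 4 comparisons, by 1.14 (WS1442) and 2.15 (MeOH eluate) at 6 h and by 1.33 and 2.52 at 24 h (adjusted p between 1.40e-07 and 0.00154, limma). At 6 h 1 was lower and 3 were higher with MeOH eluate, and 1 lower and 1 higher with WS1442. The shares of all genes at 6 h were 8.38% lower and 8.66% higher with MeOH eluate, and 1.45% and 4.14% with WS1442.

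The likeness of patterns was described over the 16 arrays after the mean of each time point was taken off. Within the 9 tested members, Etv2 was most like Cdh5 (Pearson r = 0.83) and Pcdh12 (r = 0.789). Cdh5 was well above background on only 5 of the 16 arrays. Pecam1 was most like Kdr (r = 0.614), and Etv2 ran against Tek (r = -0.47). Over all annotated genes, the profiles most like Pcdh12 were those of Col6a3, Impdh2, Bmper, Gm20764 and Pa2g4 (r between 0.861 and 0.875), and those most like Kdr were Xpnpep2, Vmn1r235, Zp3, Chga and Kcnd3os (r between 0.833 and 0.844). These points share the DMSO and treated arrays of 2 slides and the low signal of some of the genes, and none of the other members was in either list. The correlations with Pcdh12 include the 24 h values on which it was chosen, and 12 of its 16 values were not well above background, so they restate that choice and add no support to it.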

How the data were processed

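RNA of 16 samples was hybridised to 1-colour Agilent mouse arrays. The authors deposited a table of quantile-normalized intensities, of which the log2 was taken for use here as an alternative. The deposited scanner files of the same arrays hold spot intensity from Agilent Feature Extraction 11.5.1.1 (version per the submitters' processing notes), background-subtracted by that program. Of this processed intensity the log2 was taken, non-uniform spots (3 to 25 per array) were set missing, repeated spots were averaged, and the arrays were quantile normalized. A probe was kept if all arrays of some group measured it well above background, the brightest kept probe stood for a gene, and 6 group means were fitted with limma 3.58.1 in R 4.3.3 with a mean-variance trend. Python 3.11.15 with pandas 2.3.3 and matplotlib 3.10.9 prepared tables and plots. The number of arrays limits the precision. One symbol was found for 44343 probes, several for 855 and none for 15075. Symbols came from the scanner files or, by accession, from the RefSeq table (GRCm38.p6). In the authors' table the 2 Flt1 probes of 1 Ensembl transcript share an identifier and have 1 value.

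The members and all gene lists were chosen with earlier results of these data known. Per list, the genes named were those called with over a 2-fold change against DMSO, at most the 4 largest, and Pcdh12 at 24 h was left out of counts. Alternatives were scaling to the 75th percentile, normexp background, no filter, the authors' table, the mean of a gene's probes, the methods' t-test, a replicate block, each time point alone, and each array left out. The steps were tested on simulated data in which only brighter genes were given changes, all of them large. Recovery of dim genes such as Cdh5 and of small changes was not tested by it. Deviations of same-numbered samples from their group means had Pearson r from -0.235 to 0.104, except replicate 1 of WS1442 and MeOH eluate at 6 h (0.306). Samples with different numbers were not compared. The numbers were not taken as pairs in the main fit, and the replicate block is the alternative that uses them.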

Additional observations from a re-analysis of the deposited data

Results flagged for a closer look

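The effect of treatment differed between 24 h and 6 h for 2 genes, tested as the difference of the effects over all groups with limma. For Etv2 the effect at 24 h minus that at 6 h was -1.06 with WS1442 (adjusted p = 7.93e-04) and -2.22 with MeOH eluate (adjusted p = 5.21e-07), and both passed without each array in turn. For Cdh5 it was -1.85 with WS1442 (adjusted p = 0.0431), but both 6 h groups were not well above background, and the call was lost without any one of DMSO 6 h replicate 1, WS1442 6 h replicate 1 or 3, DMSO 24 h replicate 1 or 2, or WS1442 24 h replicate 2 or 3 (adjusted p between 0.0763 and 0.183). Each time point was on a slide of its own, so that time and slide cannot be told apart in these differences.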

How the results depend on the processing

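The number of members called, by limma, was 0, 2, 1 and 2 for WS1442 at 6 h, MeOH eluate at 6 h, WS1442 at 24 h and MeOH eluate at 24 h, 2 and 3 for MeOH eluate against WS1442 at 6 h and 24 h, and 2 and 1 for the difference between time points with WS1442 and MeOH eluate. For MeOH eluate at 6 h it was 1 with 75th percentile scaling, normexp, the authors' table, the replicate block or the time point alone, and 0 with no filter, the methods' t-test or the study's own limits of a 2-fold change and an unadjusted p under 0.05, added here after seeing the data. Those limits gave 1 for WS1442 at 6 h, 1 for the treatments at 6 h and 2 for the time difference with MeOH eluate. For MeOH eluate at 24 h the mean of probes gave 3, with Flt1 (-0.39). The methods' t-test at 24 h gave 0 (WS1442) and 1 (MeOH eluate), and 0 and 1 between the treatments at 6 h and 24 h. Of all genes that test called 1 and 8 at 6 h and 104 and 322 at 24 h with WS1442 and MeOH eluate. It called 70 and 211 between the treatments at 6 h and 24 h, so few calls were open to any member. Between the treatments at 24 h normexp, no filter, the replicate block, the time point alone and the study's limits gave 2, without Tie1. Normexp gave 2 for WS1442 at 24 h, 1 between the treatments at 6 h and 2 for the time difference with MeOH eluate. No filter gave 1 between the treatments at 6 h and 2 for that time difference, and the 6 h arrays alone gave 1 between the treatments. The time difference with WS1442 gave 1 with 75th percentile scaling, the mean of probes or the replicate block. The cause was not tested.

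Leaving out 1 array gave 0 to 1 for MeOH eluate at 6 h, 0 to 2 and 1 to 3 between the treatments at 6 h and 24 h, and 1 to 2 for the time difference with WS1442. Single values that changed sign lay near 0 and were not called, except Flt1 with MeOH eluate at 6 h as the mean of its probes (-0.31, adjusted p = 0.0490, limma). The others were Flt1 with WS1442 at 24 h (-0.13) and Pecam1 with MeOH eluate at 24 h (-0.093) by the mean of probes, Pecam1 with WS1442 at 24 h by normexp (0.0028), Tek with WS1442 at 24 h (-0.0087) and Flt1 with WS1442 at 6 h (0.015) by 75th percentile scaling. With the replicate block Tie1 (0.0068) and Flt1 (0.0012) with WS1442 at 6 h changed sign. With 1 array left out, the ranges that crossed 0 were, with WS1442 at 6 h, Pecam1 -0.30 to 0.034, Tie1 -0.12 to 0.10, Etv2 -0.046 to 0.088, Pcdh12 -0.95 to 0.094 and Flt1 -0.076 to 0.039. With MeOH eluate at 6 h they were Cdh5 -0.68 to 0.041, Tie1 -0.034 to 0.18 and Pcdh12 -0.96 to 0.079. With WS1442 at 24 h they were Pecam1 -0.24 to 0.20, Kdr -0.18 to 0.12 and Tek -0.24 to 0.59, and with MeOH eluate at 24 h Pecam1 -0.10 to 0.34, Kdr -0.29 to 0.0096 and Tek -0.037 to 0.79.

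Over all genes, 75th percentile scaling moved the share of calls that were lower from 25.9% to 14.9% with WS1442 and from 60.5% to 79.3% between the treatments at 6 h, from 48.0% to 59.8% with WS1442 and from 47.1% to 57.1% with MeOH eluate at 24 h, and from 54.8% to 71.9% for the time difference with WS1442. Without WS1442 24 h replicate 2 the Pcdh12 difference at 24 h was -1.68. Signals of Cdh5, Pcdh12 and Emcn near background limit what can be said of them.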
